A study of Mus musculus with 34 samples.

Results

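Distal acetylated open regions without STARR are stretches of open chromatin of activated B cells that carry histone H3 acetylated at lysine 27 (H3K27ac). They lie away from peaks of H3K4me3, a mark mainly of promoters, and hold no called reporter peak. Promoters without an H3K4me3 peak were not excluded. The regions were chosen from 55126 distinct FAIRE peaks by 3 conditions on deposited peak lists. These were a gap of more than 1 kb to every peak of H3K4me3, an overlap of at least 1 base with an H3K27ac peak, and no overlap with a STARR peak. The rule gave 5680 regions, 10.3% of all FAIRE peaks, 19.0% of the 29886 distal FAIRE peaks and 77.9% of the 7292 distal acetylated FAIRE peaks. The other 1612 distal acetylated FAIRE peaks overlapped a STARR peak and serve below as the most similar set. The FAIRE, H3K27ac, H3K4me3 and STARR lists chose the regions, so their presence or absence at a region is a description and is not tested. A missing STARR peak is a missing call: the lists hold no score and do not show how well each region was covered in the reporter library.

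FAIRE-seq recovers DNA that is poor in nucleosomes, which includes promoters, enhancers and insulator sites. H3K27ac marks active promoters and enhancers, whereas H3K4me3 marks mainly promoters, so acetylated open chromatin away from H3K4me3 is commonly listed as putative enhancer. STARR-seq tests a DNA fragment outside its own locus, on a plasmid in which an active fragment raises its own transcript, and H3K27ac is read at the fragment's own place in the chromosome. The assays can therefore give different calls for a stretch of DNA.

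The cells were B cells of the spleen of C57BL/6J mice, taken as the CD43-negative fraction (CD43 is a surface protein largely missing from resting B cells). Activated cells had been cultured with lipopolysaccharide (LPS, a bacterial product sensed by Toll-like receptor signalling) at 10 µg/ml for 3 days, and all peak lists and chromosome contacts used here are of such cells. Resting B cells, with no LPS in their titles or source names, served for the RNA comparison. In the resting samples' growth and treatment entries the LPS culture is written as well, and their true handling cannot be read from the labels. RNA-seq came from 2 resting and 2 activated samples, while each peak list is 1 list without replicates. Nothing in the labels ties replicates to separate mice or cultures, and p-values therefore cover only the spread between these samples, possibly a technical one. The RNA values (FPKM, read fragments normalised for transcript length and library size) summed to 244602 and 287884 in the resting samples and to 285068 and 285129 in the activated samples. Across tested genes the log2 values correlated with a Pearson r of 0.981 between the resting and 0.974 between the activated samples, a correlation across genes, which are not independent. The summed FPKM of 6 B cell markers was 3219 and 3590 in resting and 2005 and 1426 in activated cells, so the labelled cell type was present in all 4 samples. Markers of macrophages and monocytes summed to 496 and 836 in resting and 12.2 and 15.5 in activated cells. Erythroid markers summed to 443 and 2863 in resting and 11.7 and 4.35 in activated cells, and T cell markers to 26.1 and 37.0 against 5.36 and 3.56. In bulk samples, fewer cells of a type and less RNA per cell cannot be told apart.

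All 5680 regions were 301 bases wide, which was the width of 55123 of the 55126 FAIRE peaks. The whole region lay in an H3K27ac peak in 3898 cases (68.6%), and 805 regions had less of their width inside than outside. None lay in more than 1 H3K27ac peak. Of the regions, 494 lay on chromosome 11, 488 on chromosome 2 and 462 on chromosome 1. As a share of all FAIRE peaks they ranged from 6.13% on chromosome X (44 regions) to 12.5% on chromosome 12 (244 regions). Their base sequences were not analysed here.

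The nearest H3K4me3 peak lay at a median of 14404.5 bases (quartiles 5584.75 and 31335.2), against 15839 bases for the distal acetylated regions with STARR. At the 1 kb limit itself, the 3 regions just inside lay 1009, 1010 and 1014 bases from H3K4me3, nearest to Smad7, Nup210 and Gm6772. The 3 FAIRE peaks just outside lay 999, 997 and 997 bases away, nearest to Bend5, Pik3ap1 and Gbp1. All 3 outside and 2 of the 3 inside stood in an H3K27ac peak that also held a STARR peak.

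The nearest STARR peak lay at a median of 10537.5 bases (quartiles 2987.25 and 29603), and 2771 regions (48.8%) had one within 10 kb. For 451 regions (7.94%) it lay within 500 bases, for 46 within 50 bases, and the smallest gap was 1 base. On the other side of the rule, 47 distal acetylated FAIRE peaks were assigned to STARR by an overlap of fewer than 50 bases. At the far end, 336 regions had no STARR peak within 100 kb. The regions thus run from direct neighbours of a STARR peak to stretches with none nearby.

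The position of a region in the FAIRE list moved with its STARR status. Split into 10 equal parts from the top of the list, 13.6% of the distal acetylated FAIRE peaks lacked STARR in part 1, 42.4% in part 2, 66.6% in part 3, and between 92.5% and 96.6% in parts 6 to 10. The median list position was 51.1% of the way down for the regions without STARR and 21.2% for those with STARR. For distal open regions with neither H3K27ac nor STARR it was 68.9%. The list carries no score, and no source used here says what its order means.

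How often the acetylated domain around a region also held reporter activity was counted next. Of the 5680 regions, 1115 (19.6%, 95% Wilson interval 18.6 to 20.7) stood in an H3K27ac peak that also overlapped a STARR peak, and 4565 did not. Intervals of shares cover counting error only, and neighbouring regions are not independent. The share was larger in wider H3K27ac peaks. Each region was 301 bases wide and overlapped no STARR peak by the rule, so a narrow H3K27ac peak leaves little room for one. A rise with width is therefore partly built in, and how far was not tested. It was 1.12% (11 of 984) in peaks of 500 bases, the narrowest width, 4.28% (49 of 1144) from 501 to 1000 bases and 10.7% (177 of 1647) from 1001 to 2000 bases. Wider peaks had larger shares, with 30.7% (347 of 1130) from 2001 to 4000 bases and 68.5% (531 of 775) over 4000 bases. The intervals of these 5 width classes did not overlap, but they count regions of the same H3K27ac peak separately and are no test.

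**Figure D1:**
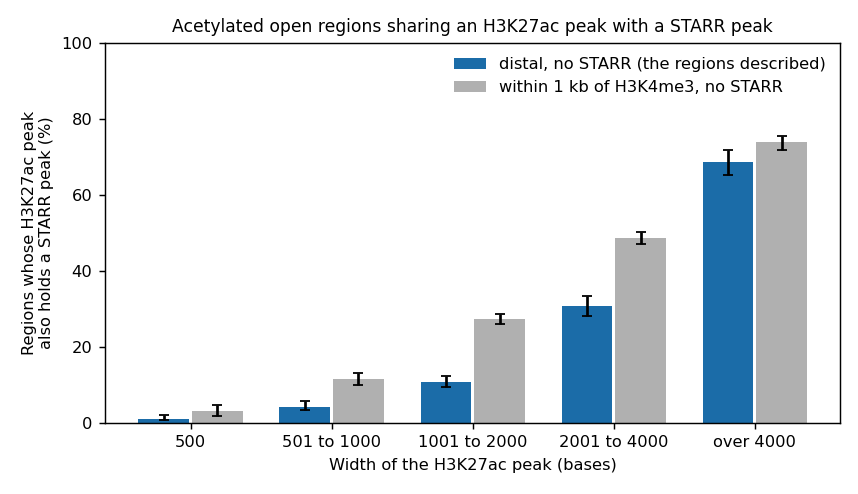
Share of acetylated open regions without a STARR peak of their own whose H3K27ac peak also holds a STARR peak (vertical axis, %), by width of the H3K27ac peak (horizontal axis, bases), for the distal regions (blue) and for regions within 1 kb of H3K4me3 (grey). Bars are shares and error bars are 95% Wilson intervals. The distal share goes from 1.12% to 68.5% and lies below the grey bar in all 5 classes. A wider peak leaves more room for a STARR peak beside the region, so a rise with width is partly built in.

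Acetylated open regions within 1 kb of H3K4me3 that also lacked a STARR peak shared their H3K27ac peak with STARR more often, in 39.0% of 13066 cases. Their shares were 2.98%, 11.5%, 27.4%, 48.7% and 73.8% over the same 5 width classes. The distal share was lower in each class. The intervals overlapped in the class of 500 bases and nearly met over 4000 bases (65.2 to 71.7 against 71.9 to 75.6). Regions of the same H3K27ac peak share 1 outcome, so the intervals are too narrow to serve as a test, and none was made. Only 7.87% of the distal regions (447) stood in an H3K27ac peak that reached an H3K4me3 peak. Where it did, 72.0% shared the peak with STARR, and where it did not, 15.2%. In all, 4440 regions (78.2%) stood in H3K27ac peaks that held neither STARR nor H3K4me3.

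Counted by H3K27ac peak, 4495 peaks held the 5680 regions, and 744 of them (16.6%, 15.5 to 17.7) held a STARR peak. Over all 23938 H3K27ac peaks, promoters included, the share was 32.4%. The 4495 peaks were picked for holding an open region without STARR, and a lower share among them is partly built in. Of the 744 peaks, 587 held 1 STARR peak, 108 held 2 and 49 held 3 or more, with 6 as the most. Peaks with 1 region held STARR in 14.2% of 3605 cases and peaks with 2 in 21.6% of 690 cases. The share was 35.3% of 139 peaks with 3 regions and 54.1% of 61 peaks with 4 or more. Their median widths were 954, 1874, 3489 and 5453 bases, so number of regions and width moved together.

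Within shared peaks the STARR peak lay at a median of 802 bases from the region (quartiles 326 and 1733, largest 15070), and within 500 bases of it in 397 of 1115 cases (35.6%). Regions that shared stood in H3K27ac peaks of a median width of 3813 bases, and regions that did not, in peaks of 1104 bases. Of the 4565 regions that did not share, 1663 (36.4%) still had a STARR peak within 10 kb, and their median gap to STARR was 15747 bases. Where an H3K27ac peak held exactly 1 region without and 1 with STARR, the STARR region was the nearer to the centre of the peak in 185 of 305 peaks (60.7%). Over all 512 peaks with both kinds, the most central region of each kind was compared, and the STARR kind was nearer in 275 (53.7%). A kind with more regions in a peak has more chances to be the nearer. Over all distal acetylated regions in peaks of 501 to 1000 bases, those with STARR lay farther out (median 64.2% of the way from centre to edge, against 57.1%). In each wider class they lay nearer to the centre.

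Read the other way, the share of distal acetylated open regions that lacked STARR was high at every width. It was 83.8% in H3K27ac peaks of 500 bases, 81.0% from 501 to 1000, 76.0% from 1001 to 2000, 75.3% from 2001 to 4000 and 74.7% over 4000 bases. A wide acetylated domain thus often held a STARR peak somewhere while most of its distal open regions were not the ones that carried it.

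Many of the regions lay close to another one along the genome. With a gap of at most 10 kb joining neighbours, 3143 of 5680 (55.3%) had another such region in reach, and the 5680 formed 3688 groups. Of these, 2537 were single regions, 723 were pairs, 327 held 3 to 4 regions (1076 regions), 88 held 5 to 7 (499) and 13 held 8 or more (122). The median gap between neighbours was 35406.5 bases (quartiles 3220.75 and 254780), and 919 gaps were under 1 kb. In the same H3K27ac peak as another such region stood 2075 regions (36.5%), and 1068 had their close neighbour only in another H3K27ac peak. By the same measure 26.0% of distal acetylated regions with STARR had one of their own kind within 10 kb, 44.5% of the distal regions without either mark and 67.4% of the acetylated regions near H3K4me3. These sets differ in number (1612, 19989 and 13066), which alone changes such a share, and no test was made.

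**Figure D2:**
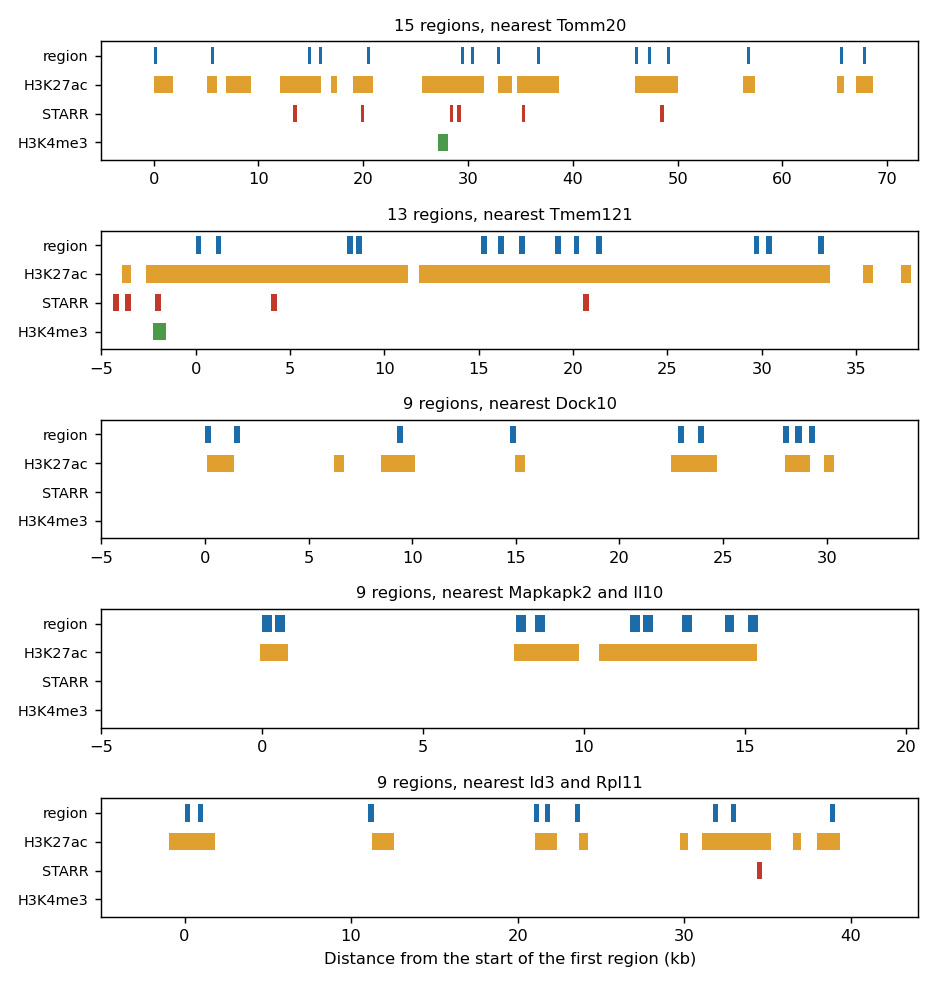
Maps of the clusters with 15 and 13 regions and of 3 of the 6 clusters with 9, each with the regions (blue), H3K27ac peaks (orange), STARR peaks (red) and H3K4me3 peaks (green) to scale; the horizontal axis is the distance in kb from the start of the first region. The clusters near Dock10 and near Mapkapk2 and Il10 hold 9 regions each and no STARR peak, whereas 6 STARR peaks lie in the cluster nearest Tomm20.

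The largest cluster held 15 regions in 67975 bases at chr8:129343170-129411144 (mm9, as all coordinates here). It lay between genes, at a median of 78452 bases from Tomm20, which encodes a receptor of the outer mitochondrial membrane. Its regions stood in 11 H3K27ac peaks, 9 of them shared a peak with STARR, and 6 STARR peaks lay in the span. With 13 regions, the cluster at chr12:114462456-114495751 came next. It lay in super-enhancers, long domains of H3K27ac on the authors' list, on the Tmem121 side of the immunoglobulin heavy chain locus. All 13 regions stood in its 2 H3K27ac peaks, and each of these peaks held a STARR peak. The map shows 2 STARR peaks inside its span against 13 open regions that overlapped none.

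In 2 further clusters no STARR peak lay in the span or in the H3K27ac peaks. At chr1:80609959-80639381, 9 regions in 5 H3K27ac peaks lay inside Dock10. At chr1:132934758-132950151, 9 regions in 3 H3K27ac peaks stood between Mapkapk2, a kinase gene of the p38 pathway, and Il10, the gene of an anti-inflammatory cytokine. The fifth cluster, at chr4:135644933-135683985, lay near Id3, an inhibitor of E proteins, and Rpl11, a ribosomal protein gene, with 9 regions in 6 H3K27ac peaks and 1 STARR peak. The next 2 in the list also held 9 regions, around Gimap6 and Gimap4, GTPases of lymphocytes, with no STARR peak in the span but 6 regions in an H3K27ac peak that held one, and at chr6:70678597-70701817 on the Rpia side of the immunoglobulin kappa locus. In the last of these all 9 regions shared an H3K27ac peak with STARR and 3 STARR peaks lay in the span.

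Among single H3K27ac peaks, the most regions stood in the one at chr12:114474268-114496063 beside Tmem121, with 9 regions and 1 STARR peak in 21796 bases. A peak at chr6:70683675-70704361 beside Rpia held 8 regions and 3 STARR peaks. The peaks at chr15:74748193-74767579 near Ly6e, a membrane protein gene, and at chr16:19003091-19012578 near Hira, a histone chaperone gene, held 6 regions each, with 1 and 2 STARR peaks. The peak near Ly6e also overlapped H3K4me3. A peak at chr2:132105344-132111248 inside Cds2, an enzyme gene of phospholipid synthesis, held 6 regions and no STARR peak. Of the 48 super-enhancers on the authors' list, 18 held at least 1 region, 16 of them beside a STARR peak. They held 56 of the 5680 regions (0.986%), so nearly all of the regions lay outside super-enhancers.

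Irf8, which encodes a transcription factor of B and myeloid cells, is singled out here after its values were seen, for its position in both kinds of domain. Of its 11 regions, 6 stood in an H3K27ac peak of 12414 bases that also held a STARR peak and overlapped H3K4me3. These 6 ran from chr8:123279217-123279517 at the edge of the gene to chr8:123284897-123285197. The other 5, from chr8:123320188-123320488 to chr8:123324468-123324768, stood 39745 to 44025 bases beyond that edge in an H3K27ac peak of 5361 bases with no STARR peak. The nearest STARR peak lay 31425 to 35705 bases from them. Irf8 had 137 and 176 FPKM in the resting and 188 and 151 FPKM in activated cells, and the groups overlapped.

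Each region was then assigned to its nearest gene, the gene whose locus in the deposited RNA table it overlapped or lay closest to. Nearness is no proof that a region acts on the gene. Inside a gene locus lay 3111 regions (54.8%, 53.5 to 56.1), against 45.9% of the distal acetylated regions with STARR. The others lay at a median of 15193 bases from their gene, and 473 were more than 50 kb away. The 5680 regions named 2714 genes, of which 1502 had 1 region, 633 had 3 or more, 241 had 5 or more and 35 had 10 or more. The 241 genes accounted for 1712 regions (30.1%). Of the 2714 genes, 2056 passed the filter on low values (at least 1 FPKM in at least 2 of the 4 samples), 658 did not, and 130 of those were listed at 0 in every sample.

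The RNA of these nearest genes was compared between activated and resting cells. Across the 10863 genes tested with limma on log2(FPKM + 1), 28.2% passed as higher in activated cells and 26.2% as lower (Benjamini-Hochberg threshold 0.05), 54.4% in all, and the groups did not overlap in 80.6%. Of the 2056 tested nearest genes, 553 (26.9%) were higher and 699 (34.0%) lower. Their median log2 difference, activated minus resting, was −0.12, against 0.03 over all tested genes. The share of lower genes was thus above the background and the share of higher genes close to it. Genes nearest to the distal acetylated regions with STARR stood at 27.5% higher and 33.4% lower, close to those without. Genes nearest to distal regions with neither mark stood at 27.7% and 27.6%, and genes nearest to acetylated regions by H3K4me3 at 28.0% and 25.1%. The gene sets overlap, so their differences were not tested. RNA of macrophages, erythroid cells and T cells was also lower in the activated samples, as given above, and its part in the lower calls was not tested.

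**Figure D3:**
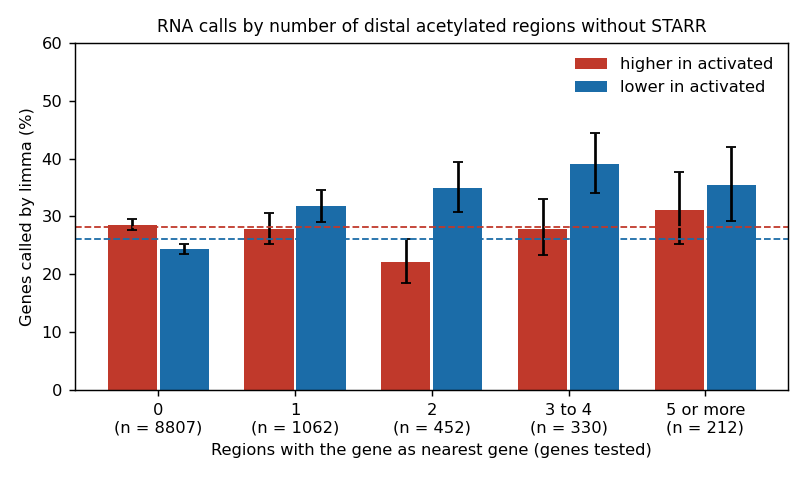
Share of tested genes called by limma as higher (red) or lower (blue) in activated than resting cells (vertical axis, %), by the number of distal acetylated regions without STARR that have the gene as nearest gene (horizontal axis). Error bars are 95% Wilson intervals and the dashed lines are the shares over all 10863 tested genes, 28.2% higher and 26.2% lower; the blue bars of all 4 classes with regions stand above their line.

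The share of lower genes was 24.4% among the 8807 tested genes with no region, 31.7% of 1062 with 1 region, 35.0% of 452 with 2, 39.1% of 330 with 3 to 4 and 35.4% of 212 with 5 or more. The share of higher genes was 28.5%, 27.8%, 22.1%, 27.9% and 31.1% in the same order. Gene length and RNA level moved with the number of regions. The median locus was 16986, 32896, 43444.5, 58920.5 and 92073 bases long, and the median activated level was 10.1, 11.96, 11.5, 14.4 and 23.7 FPKM. Their part in the shares was not tested. A STARR region near the same gene went with a similar share: 33.4% of 1445 tested genes with regions but no distal acetylated STARR region were lower, and 35.4% of 611 with both kinds. Of 266 genes with the STARR kind only 28.9% were lower, and of 8541 with neither 24.2%.

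Without 1 resting sample fewer genes were called, near these regions as elsewhere. Without resting replicate 1 the nearest genes called lower were 369 of 1977 tested (18.7%), against 1229 of all 10240 tested genes. Without resting replicate 2 they were 390 (19.7%), against 1191 of 10236. The count of nearest genes called higher was 338 without resting replicate 1.

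Foxp1 had the most regions of any named gene. It encodes a forkhead transcription factor needed for early B cell development, and 24 of its 25 regions lay inside its locus, chr6:98875336-99385339. Its RNA was 61.2 and 60.3 FPKM in the resting and 33.7 and 38.6 FPKM in activated cells. Both activated samples lay below both resting samples, a log2 difference of −0.74 ± 0.17 (SE, n = 2 per group; limma, Benjamini-Hochberg adjusted p = 0.0119). The call was lost without either resting sample (limma adjusted p = 0.0851 and 0.0732). Of the 25 regions 5 shared an H3K27ac peak with STARR, close to the 19.6% over all regions.

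Mef2c, which encodes a transcription factor of B cell survival and proliferation after receptor signals, had 17 regions, 11 of them in a peak shared with STARR. It had 89.0 and 87.5 FPKM in the resting and 62.5 and 57.0 FPKM in activated cells. Fli1, an ETS family factor gene, had 13 regions and 54.2 and 58.9 FPKM in resting against 34.3 and 34.4 FPKM in activated cells. For both genes the groups did not overlap, and neither call held in every fit without 1 sample. The limma adjusted p of Mef2c was 0.0378 and became 0.0927 to 0.200 without activated replicate 2 or either resting sample. For Fli1 it was 0.0122, and 0.0681 and 0.0997 without either resting sample.

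Another 3 genes, with 12 regions each, belong to the B cell programme. Bach2, which encodes a repressor of plasma cell differentiation, fell from 43.2 and 37.2 FPKM to 11.7 and 10.7 FPKM, a log2 difference of −1.75 ± 0.16 (limma adjusted p = 0.000276). Of its 12 regions, 11 lay outside the gene, all on the same side of it, as far as chr4:32345288-32345588, 158972 bases away, and 2 shared a peak with STARR. Bank1, an adaptor of B cell receptor signalling, fell from 162 and 152 FPKM to 54.0 and 38.7 FPKM (log2 difference −1.76 ± 0.22, limma adjusted p = 0.00102), with 10 of 12 regions inside its locus. In Ebf1, an early B cell factor gene, all 12 regions were inside the locus. Its values were 35.9 and 26.9 FPKM in the resting and 22.3 and 14.4 FPKM in activated cells, with no overlap (limma adjusted p = 0.0369). That call was lost without activated replicate 2 (0.138), without resting replicate 1 (0.192) and with no filter on low values (0.0894).

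Genes with many regions also included some that were not called. Tomm20, with 21 regions, had none inside its locus and the closest 43570 bases away. Its values were 4.59 and 4.92 FPKM in the resting and 5.94 and 8.63 FPKM in activated cells. These groups did not overlap but limma did not call it (adjusted p = 0.0653), and without activated replicate 1 it was called (0.0109). Dock10, with 13 regions all inside its locus, had 36.2 and 30.3 FPKM in the resting and 32.1 and 23.8 FPKM in activated cells, and its groups overlapped.

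For 2 genes with many regions there was little RNA in either state. Tmem121, nearest to 14 regions beside the heavy chain locus, had 0.199 and 0.408 FPKM in the resting and 0.387 and 0.413 FPKM in activated cells. Ctif, which encodes a factor of translation initiation, had 12 regions and between 0.0906 and 0.210 FPKM in all 4 samples. Both stayed under the filter and were not tested. Among the 35 genes with 10 or more regions, 33 were tested, 8 were higher, 11 lower and 14 not called, beside 28.2% higher and 26.2% lower over all tested genes. Of the 35, 29 also had a distal acetylated region with STARR nearest to them, as had 762 of all 2714 nearest genes. The median locus was 119161 bases long for the 35 and 38055.5 for all nearest genes, and the part of this length was not tested.

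**Figure D4:**
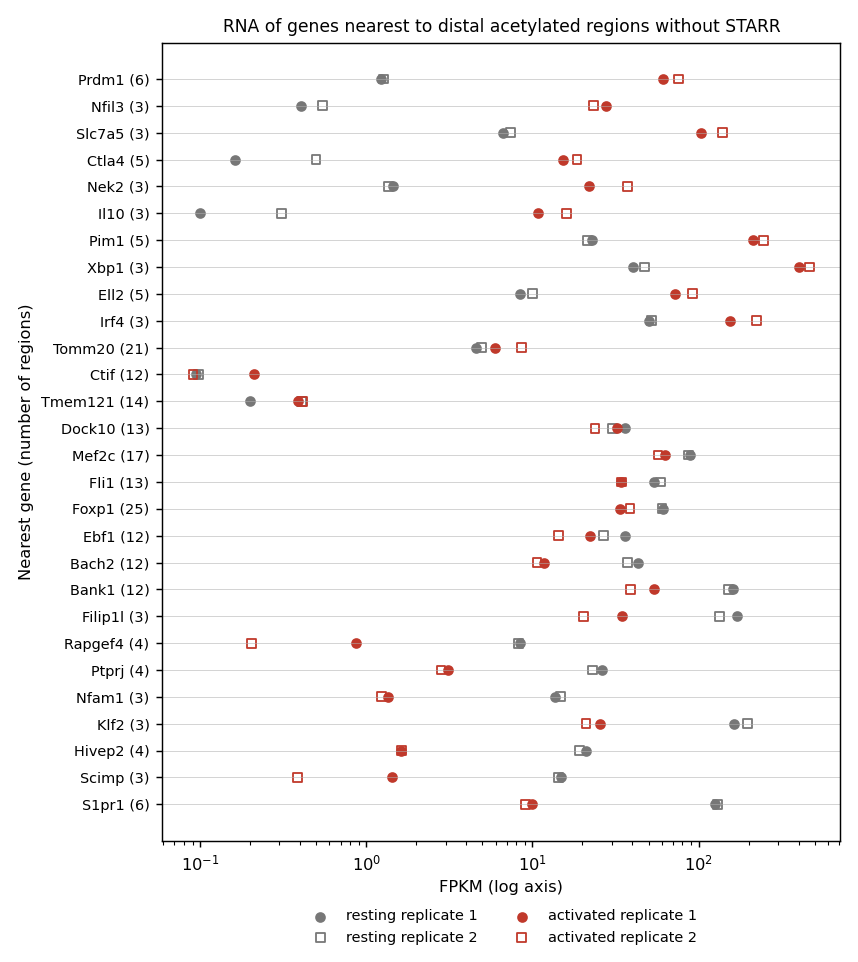
RNA level (horizontal axis, FPKM, log axis) in the 2 resting (grey) and 2 activated (red) samples for genes with the most regions, the largest rises and falls among genes with at least 3 regions, and list genes of the plasma cell and B cell identity programmes; the number of regions stands in brackets. Circles are replicate 1 and squares replicate 2; Prdm1 at the top goes from about 1.25 to 61.3 and 75.8, and S1pr1 at the bottom from over 125 to under 10.

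Most genes of the next paragraphs were picked for the size of their rise or fall among called genes with at least 3 regions, so their values are extremes. Irf4 was picked from the plasma cell list, and Mapkapk2 for its cluster. Regulators of the plasma cell programme were among the largest rises. Prdm1, which encodes Blimp-1, the repressor that drives plasma cell differentiation, had 1.23 and 1.26 FPKM in the resting and 61.3 and 75.8 FPKM in activated cells (log2 difference 4.94 ± 0.16, limma adjusted p = 1.58e-05). Its 6 regions lay outside the gene. The closest, at chr10:44154423-44154723, lay 2408 bases away in an H3K27ac peak of 743 bases with no STARR peak. Another 5 ran from chr10:44327543-44327843 to chr10:44450562-44450862, 149199 to 272218 bases away. Of these, 3 shared a peak with STARR, at gaps of 34, 1594 and 164 bases, and 6 distal acetylated regions with STARR also had Prdm1 as nearest gene.

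Xbp1 and Irf4 differed from Prdm1 in this respect, with no STARR peak in the H3K27ac peaks of their regions. Xbp1, the transcription factor gene of the secretory unfolded protein response, rose from 40.5 and 47.2 FPKM to 402 and 466 FPKM (log2 difference 3.28 ± 0.21, limma adjusted p = 8.83e-05). Its 3 regions lay at chr11:5411884-5412184, chr11:5412378-5412678 and chr11:5426937-5427237, and the nearest STARR peak was 5892 to 8560 bases away from them. Irf4, a factor of class switching and plasma cell formation, rose from 50.2 and 52.0 FPKM to 154 and 224 FPKM (log2 difference 1.84 ± 0.24, limma adjusted p = 0.00108). Its 3 regions shared no peak with STARR, and no distal acetylated region with STARR had Irf4 as nearest gene.

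Nfil3 and Slc7a5 were the largest rises after Prdm1. Nfil3, a leucine zipper factor gene, rose from 0.407 and 0.546 FPKM to 27.7 and 23.3 FPKM (log2 difference 4.16 ± 0.17), with its 3 regions 17652 to 43428 bases away. Slc7a5, which encodes a carrier of large neutral amino acids, rose from 6.66 and 7.42 FPKM to 104 and 139 FPKM (3.92 ± 0.19). Neither gene had a distal acetylated STARR region nearest to it. Pim1, a kinase gene of cytokine signalling, rose from 22.9 and 21.4 FPKM to 212 and 246 FPKM (3.31 ± 0.19), and all 5 of its regions shared a peak with STARR. The limma adjusted p of these 3 genes lay between 3.14e-05 and 6.48e-05.

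Ctla4, which encodes an inhibitory receptor better known from T cells, rose from 0.162 and 0.498 FPKM to 15.2 and 18.5 FPKM, with 5 regions. Il10 rose from 0.1004 and 0.307 FPKM to 10.9 and 16.0 FPKM (log2 difference 3.56 ± 0.22, limma adjusted p = 8.05e-05). Of its 3 regions, those at chr1:132934758-132935058 and chr1:132935161-132935461 belong to the cluster shared with Mapkapk2 and had their nearest STARR peak 21847 and 21444 bases away. Mapkapk2, with 10 regions, had 38.9 and 44.1 FPKM in the resting and 49.4 and 46.0 FPKM in activated cells and was not called (limma adjusted p = 0.363). Nek2, a centrosome kinase gene of mitosis, rose from 1.45 and 1.36 FPKM to 22.0 and 37.2 FPKM. For each of Ctla4, Il10 and Nek2 both activated samples stood well above both resting samples.

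Genes of quiescence and of lymphocyte traffic were among the largest falls. S1pr1, which encodes the sphingosine 1-phosphate receptor of lymphocyte egress, fell from 126 and 129.6 FPKM to 9.99 and 9.14 FPKM (log2 difference −3.61 ± 0.16, limma adjusted p = 4.02e-05). Its 6 regions spanned from chr3:115376760-115377060 to chr3:115407557-115407857, and the pair closest to the gene shared an H3K27ac peak of 4253 bases with STARR. Klf2, a factor of quiescence that activates S1pr1 in lymphocytes, fell from 164 and 196 FPKM to 25.5 and 21.0 FPKM (−2.90 ± 0.20, limma adjusted p = 0.000109). Its 3 regions, between chr8:74819587-74819887 and chr8:74840230-74840530, shared no peak with STARR.

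After S1pr1, the largest falls were those of Scimp and Hivep2. Hivep2, a zinc finger factor gene, fell from 21.1 and 19.3 FPKM to 1.62 and 1.63 FPKM (log2 difference −3.01 ± 0.15), with 4 regions of which 3 lay inside its locus. At chr10:13754780-13755080 a STARR peak lay only 16 bases away, outside the H3K27ac peak. Scimp, an adaptor of Toll-like receptor and MHC class II signalling, fell from 14.9 and 14.4 FPKM to 1.43 and 0.387 FPKM, with its 3 regions all inside the gene. Nfam1, an ITAM adaptor gene, fell from 13.8 and 14.7 FPKM to 1.34 and 1.24 FPKM. The limma adjusted p of these 3 genes lay between 5.01e-05 and 0.000234.

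Ptprj, a receptor phosphatase gene, fell from 26.1 and 22.9 FPKM to 3.08 and 2.82 FPKM, and all 4 of its regions were inside its locus. Rapgef4, an exchange factor gene of Rap GTPases, fell from 8.41 and 8.25 FPKM to 0.865 and 0.204 FPKM, also with 4 regions inside. Filip1l fell from 171 and 134 FPKM to 34.6 and 20.2 FPKM, with 3 regions inside. Their log2 differences were −2.69 ± 0.15, −2.64 ± 0.23 and −2.47 ± 0.28 (limma adjusted p = 6.48e-05, 0.000244 and 0.000680).

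Gene lists describe which programmes lay near the regions. Of all tested genes, 18.9% were nearest gene to at least 1 region. In the B cell identity list 21 of 27 genes were, with 142 regions, in the list of activation surface proteins and cytokine receptors 13 of 18, and in the plasma cell list 12 of 18. Quiescence and homing had 13 of 20, Toll-like receptor and NF-kB signalling 17 of 28, and AP-1, IRF, RUNX, MAF and E protein factors 13 of 28. At the other end stood the cell cycle with 3 of 20 and class switching with 0 of 11. Distal acetylated regions with STARR, the most similar set, had 877 of the 10863 tested genes as nearest gene. Their list counts were 13 of 27 for B cell identity, 7 of 18 for activation surface proteins and 6 of 18 for plasma cell. Quiescence and homing had 9 of 20 there, NF-kB 10 of 28 and AP-1 9 of 28. Cell cycle and class switching had 1 of 20 and 1 of 11. Nearness to these lists was thus not particular to the regions without STARR. The lists were chosen with earlier results known, so these counts describe the lists and are no test of them.

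**Figure D5:**
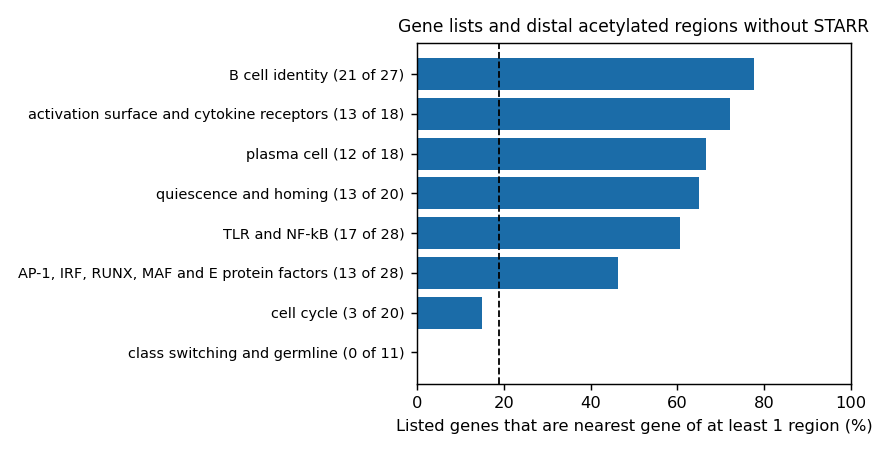
Share of the genes of 8 lists that are nearest gene of at least 1 distal acetylated region without STARR (horizontal axis, %); the numbers behind each bar stand in brackets. The dashed line marks the 18.9% of all tested genes. The top 6 lists lie above it, and cell cycle and class switching lie below it. Distal acetylated regions with STARR are not shown.

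The lists that lay near the regions moved in both directions. In the B cell identity list, 17 of the 21 near genes fell and none rose, with a median log2 difference of −1.37. In quiescence and homing, 12 of 13 near genes fell, with a median of −1.26. In the plasma cell list, 10 of 11 tested near genes rose and none fell, with a median of 3.02. Against these stand 26.2% lower and 28.2% higher and a median of 0.03 over all tested genes. Members of the same lists that were not near a region moved the same way: 5 of 6 fell in B cell identity, 7 of 7 in quiescence and homing, and 6 of 6 rose in the plasma cell list. The list counts changed with the samples: B cell identity had 12 to 13 near genes called lower without activated replicate 2 or either resting sample. Quiescence and homing had 6 without resting replicate 1 and 8 without resting replicate 2. With no filter on low values the counts were 13 and 8.

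Among quiescence and homing genes, Btg1, an antiproliferative gene, fell from 134 and 125 FPKM to 49.3 and 19.3 FPKM (limma adjusted p = 0.00594, and 0.0531 without resting replicate 1). All its 6 regions were distant, the closest 209157 bases away, and 5 shared a peak with STARR. Ccr6, a chemokine receptor gene with 7 regions, had 83.3 and 60.0 FPKM in the resting and 47.5 and 19.7 FPKM in the activated samples (limma adjusted p = 0.0473). Its call was lost without activated replicate 2 or either resting sample (0.0887 to 0.231) as well as when the samples were scaled to the same median (0.0671), with a pseudocount of 0.1 (0.0506) and with no filter on low values (0.111). Bcl2, an inhibitor of apoptosis with 11 regions inside its locus, was the exception of the list. It had 26.6 and 23.1 FPKM in the resting and 29.2 and 20.9 FPKM in activated cells, so the groups overlapped.

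In the plasma cell list, Ell2, an elongation factor gene of immunoglobulin secretion, rose from 8.37 and 10.0 FPKM to 71.8 and 92.5 FPKM (log2 difference 3.02 ± 0.19, limma adjusted p = 8.40e-05). All 5 of its regions shared an H3K27ac peak with STARR. The list's regions were few, 27 over 12 genes, and 11 of them shared a peak with STARR. The B cell identity list held 142 regions over 21 genes, 89 inside a locus and 48 sharing with STARR. The lists differ in gene length (median locus 11588.5 bases in the plasma cell and 40800 bases in the identity list), whose part in the numbers of regions was not tested.

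Toll-like receptor and NF-kB genes, the pathway through which LPS acts, split evenly near the regions, with 6 higher, 6 lower and 5 not called of 17 near genes (median −0.18). Of the 11 list genes that were not near a region, 1 was higher and 5 were lower. For this and the next lists the shares over all tested genes were 28.2% higher and 26.2% lower. Tnfaip3, which encodes the NF-kB inhibitor A20, rose from 16.3 and 14.6 FPKM to 47.6 and 40.3 FPKM (limma adjusted p = 0.000707), with 7 regions, none sharing with STARR. Its regions included chr10:18715234-18715534, 5333 bases from the gene, where the nearest STARR peak was 19639 bases away. Il6, a cytokine gene with 5 regions, was listed at 0 and at 0.0633 FPKM in the resting and had 14.6 and 5.07 FPKM in activated cells. Cd180, a surface protein that modulates LPS responses, fell from 155 and 128 FPKM to 61.1 and 52.8 FPKM (limma adjusted p = 0.00242), and all 4 of its regions shared a peak with STARR. Nfkb1, the gene of the p50 subunit, had 10 regions and 47.3 and 45.6 FPKM in resting against 52.4 and 54.6 FPKM in activated cells. Its groups did not overlap, yet limma did not call it (adjusted p = 0.348).

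Of the activation surface and cytokine receptor genes near the regions, 5 were higher and 6 lower of 13. Of the 5 list genes that were not near a region, 2 were higher and 1 was lower. Sema7a, a semaphorin gene with 8 regions, rose from 10.7 and 8.39 FPKM to 43.2 and 36.3 FPKM (limma adjusted p = 0.000283). Cd44, an adhesion receptor, rose from 25.04 and 28.3 FPKM to 56.2 and 64.9 FPKM (limma adjusted p = 0.00212). Il21r, the interleukin 21 receptor, had 97.7 and 84.5 FPKM in the resting and 181 and 145 FPKM in activated cells, and all 4 of its regions shared with STARR. Its limma adjusted p was 0.0181, and 0.0747 and 0.138 without either resting sample. Cd83, an activation marker with 6 regions, had 128 and 151 FPKM in the resting and 213 and 138 FPKM in activated cells, with overlapping groups.

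Factors of the AP-1, IRF, RUNX, MAF and E protein families had 0 higher and 7 lower of 13 tested genes that were not near a region. The near genes of the list had 5 higher and 4 lower of 13. With no filter on low values these counts changed to 4 and 2. Without either activated sample only 11 of the 13 were still tested, so such fits do not cover the same genes. The median log2 difference was 0.28 over the 13, −0.58 without activated replicate 1 and −0.03 without activated replicate 2. Runx3, with 8 regions, had 24.3 and 18.2 FPKM in the resting and 38.5 and 29.1 FPKM in the activated samples (limma adjusted p = 0.0400). It was no longer called when samples were scaled to the same median (0.0645), with no filter on low values (0.0850), without activated replicate 1 (0.126) or without either resting sample (0.0540 and 0.249). Id3, with 7 regions, most of them in the cluster on chromosome 4, had 58.9 and 106 FPKM in the resting and 40.5 and 29.1 FPKM in the activated samples (limma adjusted p = 0.0180). Without activated replicate 2 or resting replicate 2 its p was 0.0767 and 0.0904, and with no filter on low values 0.0576. Tcf4, the E2-2 gene, had 21.8 and 25.3 FPKM in the resting and 34.7 and 35.5 FPKM in activated cells with 8 regions (limma adjusted p = 0.0252, and 0.0553 to 0.205 without activated replicate 2 or either resting sample). Irf2, also with 8 regions, had 59.6 and 55.6 FPKM in the resting and 43.8 and 38.1 FPKM in activated cells. It was not called (limma adjusted p = 0.0545) but passed without activated replicate 1 (0.0458), with limma without its trend and robust options (0.0413) and with samples scaled to the same median (0.0339).

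Of the 17 cell cycle genes that were not nearest to any region, 14 rose and 2 fell. Near the regions were 3 of 20 (15.0%), close to the 18.9% of all tested genes, with 12 regions between them, all inside the loci. Of these 3, 2 were called higher, and none was called without the filter on low values. Cdk6, a kinase gene of the G1 phase with 6 regions, had 3.65 and 2.65 FPKM in the resting and 5.25 and 8.64 FPKM in the activated samples (limma adjusted p = 0.0197, 0.0604 and 0.111 without activated or resting replicate 2, and 0.0573 with no filter). Ccne1, the cyclin E1 gene with 1 region, had 4.02 and 5.50 FPKM in the resting and 8.84 and 18.3 FPKM in the activated samples (limma adjusted p = 0.0150, 0.0913 without resting replicate 1, and 0.0549 with no filter). Ccnd3, the cyclin D3 gene with 5 regions, had 23.8 and 33.4 FPKM in the resting and 25.7 and 32.9 FPKM in activated cells, with overlapping groups. None of the 11 class switching genes was nearest to a region, although 9 of them rose.

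Some marker genes of other cell types were nearest to a region, beside 18.9% of all tested genes and 11.4% of all genes in the table. Of 11 macrophage and monocyte markers 3 were (27.3%), with 5 regions: Emr1, Itgam and Fcgr3. Emr1, which encodes F4/80, had 14.1 and 16.8 FPKM in the resting and 0.154 and 0.337 FPKM in activated cells. Of 10 T cell markers 4 were near (40.0%), of 5 dendritic cell markers 2 (Flt3 and Siglech), of 5 endothelial and stromal markers 2 (Pecam1 and Cdh5) and of 5 NK cell markers 1. No erythroid or neutrophil marker was. Whether cells other than B cells contributed to the FAIRE or H3K27ac peaks at such genes was not tested.

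The deposited Hi-C list of paired genome regions that touch in activated cells was used to see how many of the regions it reached. It held 27903 distinct contacts between anchors of 500 to 5000 bases. Of the 5680 regions, 1088 (19.2%, 18.2 to 20.2) overlapped an anchor, against 79.4% of the 1612 distal acetylated regions with STARR, 9.17% of the distal regions without either and 64.7% of the acetylated regions near H3K4me3. The list was built around STARR, since 99.96% of its contacts had a STARR peak in at least 1 anchor. A lower share of regions without STARR therefore cannot be told apart from the way the list was made. Of the 1088 regions, 989 lay in an anchor that also held a STARR peak and 99 did not. For 407 an anchor also held H3K4me3, and 270 lay in an anchor of 2 kb or less. A contact therefore cannot be assigned to the region rather than to its neighbours in the anchor.

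For 1025 of the 1088 regions (94.2%) an H3K4me3 peak lay at the other anchor of a contact, and for 946 the end of a gene did. The authors named the list as filtered enhancer-promoter interactions, so these counts cannot be told apart from the way it was made. The nearest gene itself had an end at the other anchor for 143 (13.1%). The anchors of contacts with a region were a median of 992530 bases apart (quartiles 153996 and 2103350). The contacts reached 1480 genes, of which 1382 were tested, 32.9% higher and 21.7% lower in activated cells. Among the 8295 tested genes at any anchor of the list 31.1% were higher and 21.7% lower, so the shares were close to those of the list as a whole. Dapp1, an adaptor gene of B cell receptor signalling, was reached by 8 regions and was the nearest gene of 8. It fell from 27.1 and 28.9 FPKM to 14.3 and 14.6 FPKM (limma adjusted p = 0.00257). Leprotl1 was reached by 7 regions and was nearest gene of none, with means of 10.5 FPKM in the resting and 10.8 FPKM in activated cells. Atf6, a sensor gene of the unfolded protein response, was reached by 5 and rose from a mean of 14.7 to 52.8 FPKM (log2 difference 1.78, limma adjusted p = 0.000264).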

How the data were processed

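The submitters' processing notes list as tools STAR, TopHat2, Bowtie, Bowtie2, bedtools and HOMER, without role or version, and mm9 as build. Per the labels, the FAIRE, H3K27ac and H3K4me3 lists stand under replicate 1 and the STARR list under all reporter runs, of 12 h and of 24 h; the super-enhancer list stands under no sample. Lists give positions only, and 7 duplicate FAIRE rows were removed. Per the file header, the Hi-C list of the authors gives each contact a read count, a z-score value and a log p; the authors made the count and score values, and contacts were used as deposited, with no filter on either. The unit of the deposited RNA table is not named, and its values were treated as FPKM; the depth behind them is unknown, and no strand is given, so overlapping genes cannot be told apart. Symbols turned into dates (27 rows) and the 265 symbols that occur on several rows were never named.

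Overlap meant at least 1 base; gaps are between edges, and clusters join regions at most 10 kb apart (Python 3.11.15). A gene needed at least 1 FPKM in at least 2 samples to enter limma 3.58.1 (R 4.3.3, trend and robust, no block) on log2(FPKM + 1), with Benjamini-Hochberg adjustment over all tested genes and a threshold of 0.05. Fold changes on this scale understate changes of low genes. The scripts were tested on simulated data. Members and gene lists were chosen with earlier results of these data known. Named genes were taken from the 10 with the most regions, the 8 largest rises and 8 largest falls among called genes with at least 3 regions, groups that do not overlap and a higher group averaging at least 5 FPKM, and up to 4 genes per list with the most regions; antigen receptor segments and predicted names were left out, and some genes are not reported here. Genes named for an H3K27ac peak, a cluster, a contact or a marker list come on top of that rule, and Irf8 was chosen after its values were seen. Values of resting ChIP-seq, the plasmid library, nascent RNA and H3K4me1 were not used here.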

Additional observations from a re-analysis of the deposited data

How the results depend on the processing

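With the distance to H3K4me3 raised to more than 2 kb, 5231 regions remained in the set, 17.4% shared an H3K27ac peak with STARR, 53.9% lay within 10 kb of another and 16.5% lay in a Hi-C anchor. At more than 5 kb these values were 4397, 16.5%, 52.7% and 13.3%. With at least 50% of the region in H3K27ac (4875 regions) sharing was 21.2% and clustering 53.2%. With no STARR peak within 500 bases (5229 regions) the shares were 13.7%, 53.0% and 15.3%. Counting only STARR peaks on the list of those in FAIRE peaks, sharing was 17.7%. Cluster gaps of 5 kb and 20 kb put 47.3% and 63.5% of regions within reach of another.

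Leaving out 1 RNA sample at a time gave 1735 to 2859 higher and 1191 to 2834 lower genes of all tested, and 338 to 485 higher and 369 to 689 lower nearest genes. Without resting replicate 1 the counts were 1735 and 1229 of all genes and 338 and 369 near the regions; without resting replicate 2 the lower counts were 1191 and 390. The remaining settings kept each of these counts within 1.5 times. Of 45 tested named genes 38 were called, 20 of them in every fit without 1 sample, 12 lost the call in at least 1 such fit, and the others were no longer tested in some. Without 1 sample the log2 difference of Bcl2 ran from −0.24 to 0.22 (0.22 without activated replicate 2, 0.09 without resting replicate 1), that of Cd83 from −0.0061 (without activated replicate 1) to 0.62, and that of Ccnd3 from −0.19 to 0.28 (−0.13 without activated replicate 2, −0.19 without resting replicate 1). With no filter on low values 6 named calls were lost, with adjusted p of 0.0549 (Ccne1) to 0.111 (Ccr6). Scaling to the same median gave −0.019 for Ccnd3. None of these 3 was called in any of those fits.

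The replicate numbers only name the samples: across 10863 genes the deviations of same-numbered samples correlated at 0.124 over 2 pairs. With the replicate number as a block 3317 genes were higher and 2964 lower, and 589 and 724 of the nearest genes. The block also called Tomm20 (adjusted p = 0.0407) and Irf2 (0.0323) and ended no call of a named gene. Scaled to the same median, 536 nearest genes were higher and 758 lower. Peak lists without replicates or scores limit every share of regions to a description, and the RNA depth is unknown.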
